A study of Mus musculus with 4 samples.

Results

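The Irx, Pax, Msx, Dlx, Alx, Prrx, Meox, Tbx, Lhx and Nkx families and their relatives such as Meis, Pbx and Tgif encode transcription factors of the homeobox, paired-box and T-box classes outside the Hox clusters. Members were chosen by symbol alone, as the entries whose name is a family name of this kind followed by a number, and 94 of 17575 listed genes were members. They were measured by RNA-seq in rib chondrocytes, the cells that make cartilage matrix, from C57/Bl6 mice at an age of 10 days. The cells were released with collagenase, filtered and plated before RNA was extracted. The 2 wild type libraries were set against 2 libraries from mice that carry a Col2Cre transgene, a Cre recombinase driven in cartilage, labelled Col2Cre(Tg), and are Kdm6a(fl/fl) and also Kdm6b(fl/fl), meaning that loxP sites flank part of each gene. This group is called the knockout here. The labels describe the controls only as wild type, so it is not known whether they carried Cre or loxP alleles. Cre is driven by the Col2 promoter, and deletion was not measured cell by cell. Which cells of the plated digest kept both genes is therefore not known. The measured RNA is that of the whole plated population.

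Homeobox factors bind DNA through a homeodomain, T-box factors through a T-box domain and Pax factors through a paired domain, and in the embryo they assign identity to regions of the limb, the face, the vertebrae and the ribs. Many of their genes have promoters rich in CpG dinucleotides and, in cells that do not use them, carry the repressive methyl mark that Polycomb complexes place on histone H3. KDM6A and KDM6B are demethylases that remove this mark. No histone mark was measured here, and the values below are transcript levels only.

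The libraries held 31178248 to 32332044 estimated counts each, and 71 of the 94 members were listed in all 4 libraries. Kdm6b fell 2.56-fold and Kdm6a 1.83-fold in the libraries labelled knockout (edgeR adjusted p = 0.00174 and 0.00489), and these counts take in exons outside the deleted stretch as well. The labels do not state whether replicate libraries were made from different animals or cultures, so each p-value reflects only the scatter among these samples, and that scatter may be technical. Levels between genes are compared per length as FPKM, fragments scaled to transcript length and library depth. Levels of a single gene between libraries are given as CPM, counts scaled to a common library total with TMM factors.

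Of the 94 members 48 passed the filter on low counts and were tested. 4 rose and 4 fell in the knockout at an edgeR adjusted p under 0.05, and 40 did not pass. These 8 calls are 16.7% of the tested members, where 9.25% of all 13773 tested genes were called. By direction, 3.62% of all tested genes rose and 5.63% fell. Irx3, Irx1, Prrx1 and Tgif1 fell, and Meis2, Pbx2, Tgif2 and Alx1 rose. All but Irx1 averaged at least 10 CPM, so 7 of the 17 members at that level were called, where 11.9% of all genes at that level were. Log2 fold changes, knockout minus wild type, were above 0 for 31 tested members and below 0 for 17, with a median of 0.15 against 0.00443 over all tested genes. The knockout libraries lay outside the range of the wild type libraries in 26 of the 48, which is 54.2% against 61.7% of all tested genes. The filter asks for enough counts in only 2 libraries, so a low gene can enter through the group where it is high. Pax9 and En1 entered through the knockout libraries and Irx1 through the wild type ones. The direction of such genes in these counts is therefore partly set by the filter. When either wild type library was left out, no gene at all passed in edgeR. All 8 members kept their direction then, and 13 of the 48 members (27.1%, without replicate 1) and 15 (31.3%, without replicate 2) had an unadjusted p under 0.05, where 24.4% and 18.3% of all tested genes did. All 8 members also kept their direction when either knockout library was left out. Some of the 8 calls were then lost, as given with each gene below.

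**Figure D1:**
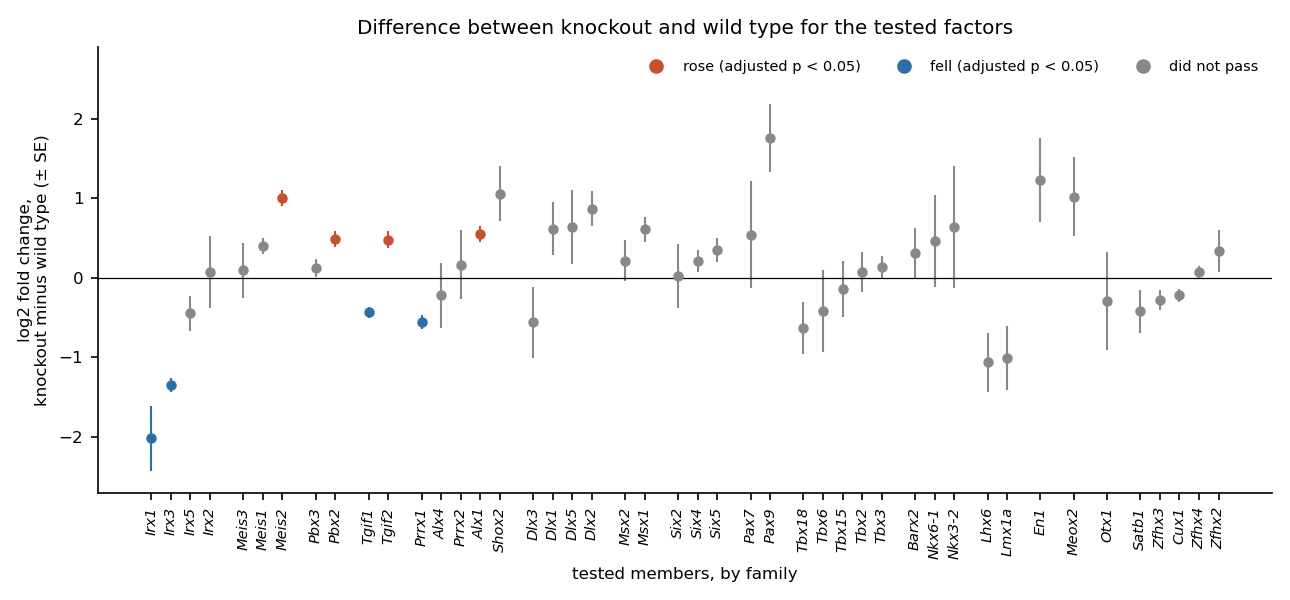
Log2 fold change, knockout minus wild type, with its standard error for 45 of the 48 tested factors (1 point each, grouped by family on the horizontal axis, n = 2 libraries per group). Coloured points passed an edgeR adjusted p of 0.05: Irx1, Irx3, Tgif1 and Prrx1 lie below 0, and Meis2, Pbx2, Tgif2 and Alx1 above it.

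Per length, Tgif1 was the most abundant member, with 99.3 and 97.4 FPKM in the wild type and 76.9 and 72.0 FPKM in the knockout libraries. Prrx1 came next at a mean of 28.7 FPKM over the 4 libraries, followed by Alx1 at 14.6, Cux1 at 13.8 and Irx3 at 13.7 FPKM. The order of the last 3 differed between the groups. In both wild type libraries Irx3 (20.8 and 18.3 FPKM) lay above Cux1 (15.0 and 13.1 FPKM) and Alx1 (12.5 and 10.9 FPKM). In both knockout libraries Irx3 (7.97 and 7.78 FPKM) was the lowest and Alx1 (16.7 and 18.4 FPKM) lay above Cux1 (13.7 and 13.3 FPKM). Only 12 members averaged at least 5 FPKM and 24 at least 1 FPKM. Pbx3, Pbx2 and Tbx3 averaged 8.81, 7.48 and 7.34 FPKM, and Tgif2 and Six5 followed at 5.78 and 5.70 FPKM. Of the remaining members, 46 had too few counts for the test. Their highest value was 29 counts, for Pax1 in knockout replicate 1.

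**Figure D2:**
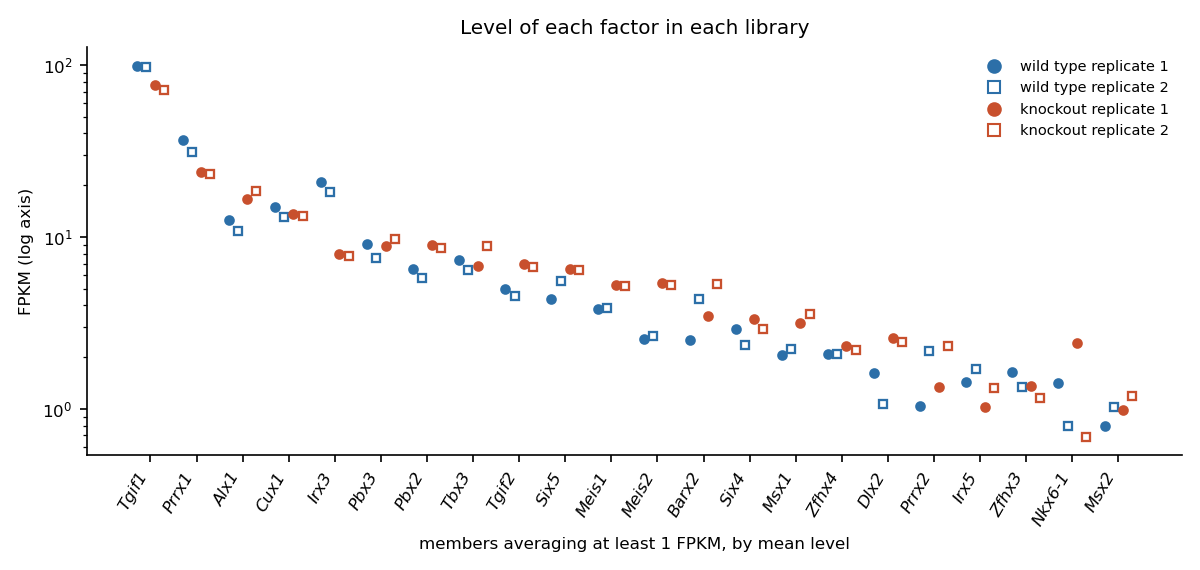
FPKM (log axis) in each of the 4 libraries for 22 of the 24 factors that averaged at least 1 FPKM, ordered by mean level. Tgif1 lies above all others in every library, and Irx3 and Prrx1 are lower in both knockout libraries than in both wild type libraries.

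Promoter windows of RefSeq on the mouse assembly GRCm38.p6, from 250 bases before to 50 after a transcript start, were found for 64 members (85 windows, since some genes have several starts), 6 of them among the 8 called genes. The deposited files use mm9, so these coordinates serve only to place the sequences. Members had a median of 18 CpG per window against 7 over all 32851 windows. All windows together belong to 27025 genes, more than the 17575 listed here, and so take in genes without counts in these libraries. The observed number of CpG was at least 0.6 times that expected from base composition in 69.4% of member windows and in 35.8% of all windows. The median observed over expected ratio was 0.698 in windows of tested members and 0.714 in those of untested members. The promoters of 4 called genes are shown with each CpG in capitals, to set a CpG-poor start beside CpG-rich ones. Stretches that any annotated GENCODE exon covers were left out.
Tgif1 (fell), the second of its 5 starts, chr17:70851735-70851984, minus strand: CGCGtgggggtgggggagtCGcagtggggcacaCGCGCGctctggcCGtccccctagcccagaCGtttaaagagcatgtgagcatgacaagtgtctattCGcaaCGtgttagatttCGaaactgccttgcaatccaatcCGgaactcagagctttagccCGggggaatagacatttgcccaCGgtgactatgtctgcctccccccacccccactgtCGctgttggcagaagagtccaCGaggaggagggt
Tgif2 (rose), chr2:156839893-156840006, plus strand: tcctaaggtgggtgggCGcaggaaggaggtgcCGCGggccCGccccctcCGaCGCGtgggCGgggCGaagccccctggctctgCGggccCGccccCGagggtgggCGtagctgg
Pbx2 (rose), chr17:34592009-34592258, plus strand: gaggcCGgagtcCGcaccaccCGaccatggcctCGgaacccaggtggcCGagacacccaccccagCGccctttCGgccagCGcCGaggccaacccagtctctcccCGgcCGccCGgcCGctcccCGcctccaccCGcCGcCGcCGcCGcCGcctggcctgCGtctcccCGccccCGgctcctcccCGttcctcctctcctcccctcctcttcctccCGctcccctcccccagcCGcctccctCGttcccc
Prrx1 (fell), chr1:163313711-163313900, minus strand: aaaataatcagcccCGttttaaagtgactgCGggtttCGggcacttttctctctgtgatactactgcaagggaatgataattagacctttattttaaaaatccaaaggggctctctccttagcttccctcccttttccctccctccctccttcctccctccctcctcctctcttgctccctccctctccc
The Pbx2 stretch holds 27 CpG in 250 bases, and the Tgif1 and Tgif2 stretches hold 16 in 250 and 13 in 114 bases. Prrx1 has 3 in 190 bases. Its full window had an observed over expected ratio of 0.36, below those of Pbx2 (0.882), Irx3 (0.748), Meis2 (0.666) and Tgif2 (0.638). The 5 Tgif1 windows had ratios of 0.803, 0.807, 0.698, 0.75 and 0.196, so that the last of its starts, with 2 CpG, was poorer in CpG than that of Prrx1. Both CpG-rich and CpG-poor promoters thus occur among the called genes, and rising and falling genes were found among the CpG-rich ones. The hexamer TGACAG, the core letters bound by MEIS and TGIF proteins, was searched on both strands and occurred in 17 of the 85 member windows and in 19.2% of all windows. TAATTA, a core of many homeodomains searched in the same way, occurred in 5.88% and 5.29%. The Prrx1 window held TAATTA and 2 of the 5 Tgif1 windows held TGACAG, which describes the letters only.

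Iroquois factors pattern the heart, the nervous system and the limb, and Irx3 and Irx5 act in early limb bud skeletal patterning. Irx3 (gene 16373, chromosome 8) showed the largest change among members above 10 CPM. It measured 48.9 and 44.1 CPM in the wild type libraries and 18.5 and 18.1 CPM in the knockout libraries. The groups lay far apart and the knockout libraries almost coincided. Irx3 fell 2.55-fold, from 46.5 ± 3.4 to 18.3 ± 0.27 CPM (SD, n = 2 each; log2 change -1.35, SE 0.089, edgeR adjusted p = 0.00174). Irx1 (chromosome 13) fell 4.06-fold from a low level (log2 fold change -2.02, SE 0.41, edgeR adjusted p = 0.0322). It rested on 45 and 48 counts in wild type and 16 and 8 in knockout. Irx1 did not pass without knockout replicate 2 or without a filter on low counts. Irx5, which follows Irx3 on chromosome 8 among protein-coding genes, measured 3.48 and 4.21 CPM in wild type and 2.44 and 3.19 CPM in knockout. Both knockout values lay below both wild type values, and the gene did not pass (log2 fold change -0.45, SE 0.22, edgeR adjusted p = 0.234). Irx2, the neighbour of Irx1, overlapped between groups at 0.38 to 0.757 CPM, and Irx6, next to Irx5, had 1 count in knockout replicate 1 and none listed elsewhere. The estimated counts of Irx3 and Irx5 were not whole numbers in any library, so some of their reads were shared with similar sequences and their split is uncertain.

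MEIS and PBX proteins are partners that bind DNA together and with HOX proteins. Meis2 (gene 17536, chromosome 2) was about 2.01-fold higher in the knockout. It measured 12.1 and 12.9 CPM in wild type and 25.5 and 24.7 CPM in knockout libraries. The replicates agreed closely and the groups did not overlap. Meis2 rose 2.01-fold, from 12.5 ± 0.56 to 25.1 ± 0.55 CPM (SD, n = 2 each; log2 change 1.0, SE 0.098, edgeR adjusted p = 0.00456). Meis1 measured 13.1 and 13.5 CPM in wild type and 17.6 and 17.5 CPM in knockout. Its groups were also apart but it did not pass (log2 fold change 0.40, SE 0.10, edgeR adjusted p = 0.0604). Meis3 overlapped between groups, at 1.19 to 2.06 CPM. Counts of Meis1 and Meis2 were not whole in any library.

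Among the PBX genes Pbx2 (gene 18515, chromosome 17) rose 1.40-fold. It measured 18.2 and 16.7 CPM in wild type and 24.9 and 24.0 CPM in knockout libraries (17.4 ± 1.1 and 24.4 ± 0.68 CPM, SD, n = 2 each; log2 change 0.49, SE 0.097, edgeR adjusted p = 0.031). The groups did not overlap. The call was lost without knockout replicate 1, and also without a filter on low counts. Pbx3 measured 25.6 and 21.8 CPM in wild type and 24.5 and 27.0 CPM in knockout. Its groups overlapped, and it did not pass (log2 fold change 0.12, SE 0.11). Pbx4 had 1 to 6 counts per library and was not tested. Pbxip1, which encodes a protein that binds PBX factors and belonged to the list of cofactors, rose 1.5-fold from 22.5 and 20.0 to 30.3 and 33.4 CPM (edgeR adjusted p = 0.0218).

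TGIF1 and TGIF2 are homeodomain repressors of the same structural class as MEIS and PBX that restrain transcription driven by TGF-beta through SMAD proteins. The paralogues moved in opposite directions. Tgif1 (gene 21815, chromosome 17) measured 161 and 162 CPM in wild type and 123 and 115 CPM in knockout libraries, and fell 1.35-fold (161 ± 0.92 to 119 ± 5.2 CPM, SD, n = 2 each; log2 change -0.44, SE 0.072, edgeR adjusted p = 0.0187). Tgif2 (gene 228839, chromosome 2) measured 14.5 and 13.3 CPM in wild type and 19.7 and 19.0 CPM in knockout libraries, and rose 1.39-fold (13.9 ± 0.86 to 19.3 ± 0.46 CPM; log2 change 0.48, SE 0.11, edgeR adjusted p = 0.0419). The groups of both genes were apart. Both calls were lost without knockout replicate 2. That of Tgif2 was also lost without knockout replicate 1, or without a filter on low counts.

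**Figure D3:**
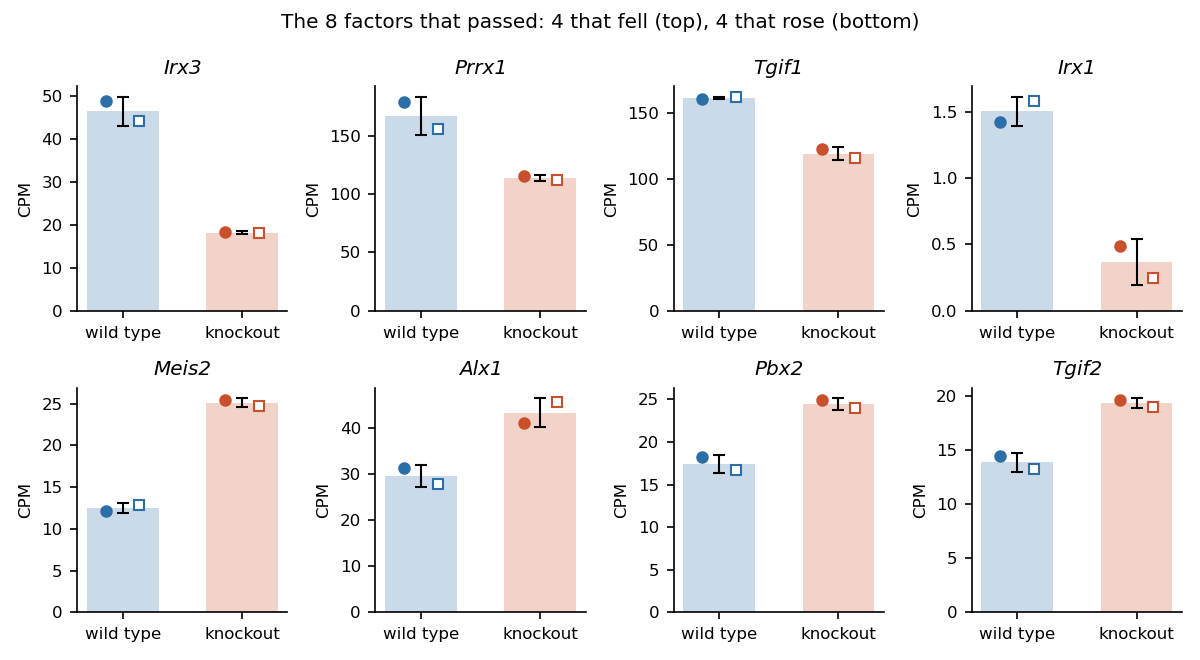
CPM in each library (filled circle, replicate 1; open square, replicate 2), group mean (bar) and standard deviation over 2 libraries (error bar) for the 8 factors that passed. In each panel the groups do not overlap, from a 4.06-fold fall of Irx1 to a 2.01-fold rise of Meis2.

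The paired-type homeobox genes of skeletal mesenchyme include Prrx1, a factor of limb and craniofacial mesenchyme that is also used in perichondrium and fibroblasts, and Alx1, which acts in the mesenchyme of the developing face. Prrx1 (gene 18933, chromosome 1) measured 178 and 156 CPM in wild type and 115 and 112 CPM in knockout libraries, with no overlap. It fell 1.47-fold (167 ± 16 to 113 ± 2.6 CPM, SD, n = 2 each; log2 change -0.56, SE 0.088, edgeR adjusted p = 0.0166). Counts of Prrx1 were not whole in any library either. Alx1 (gene 216285, chromosome 10) measured 31.2 and 27.8 CPM in wild type and 41.0 and 45.4 CPM in knockout libraries, also without overlap, and rose 1.46-fold (29.5 ± 2.4 to 43.2 ± 3.1 CPM; log2 change 0.55, SE 0.096, edgeR adjusted p = 0.0222). Markers of fibroblasts and perichondrium summed to 1125 and 1602 CPM in the wild type and 725 and 1016 CPM in the knockout libraries. Of their 9 genes 0 rose and 2, Col1a2 and Dcn, fell, where 3.62% and 5.63% of all tested genes did. These 2 genes made up much of the sums. Dcn measured 446 and 732 CPM in wild type and 252 and 313 CPM in knockout. Col1a2 measured 255 and 324 against 106 and 150 CPM. Log2 fold changes were above 0 for 4 of the 9 genes and below 0 for 5, with a median of -0.03. The part of fibroblasts and perichondrium in the fall of Prrx1 was not tested. In RNA from a mixed population fewer cells of a type and less RNA per cell cannot be told apart. Shox2, a limb homeobox gene that promotes chondrocyte growth, measured 0.506 and 0.461 CPM in wild type and 0.946 and 1.07 CPM in knockout, and did not pass (log2 fold change 1.06, SE 0.35, edgeR adjusted p = 0.106). Prrx2 and Alx4 overlapped between groups at 1.17 to 2.61 and 0.43 to 0.702 CPM.

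Dlx and Msx genes act in limb and facial skeleton, downstream of BMP signals in many settings, and Dlx5 and Msx2 also act in bone formation. None of their 6 tested members passed in edgeR, and 1 of them, Dlx2, passed with DESeq2. Dlx2 measured 4.05 and 2.73 CPM in wild type and 6.38 and 6.01 CPM in knockout libraries, with the knockout above in both (log2 fold change 0.87, SE 0.22, edgeR adjusted p = 0.058). With DESeq2 its adjusted p was 0.0316. Dlx1, its neighbour on chromosome 2, measured 0.633 and 0.625 CPM in wild type and 0.885 and 1.04 CPM in knockout, again with the knockout above (log2 fold change 0.61, SE 0.33, edgeR adjusted p = 0.269). Msx1 measured 3.98 and 4.38 CPM in wild type and 5.98 and 6.75 CPM in knockout (log2 fold change 0.61, SE 0.16, edgeR adjusted p = 0.0669). On FPKM values limma gave Msx1 an adjusted p of 0.0458. Msx2 and Dlx5 overlapped between groups, at 1.74 to 2.55 and 0.601 to 1.56 CPM. Dlx3 had a log2 fold change of -0.56 (SE 0.44). Dlx4, Dlx6 and Msx3 had at most 6 counts per library.

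Six4 and Six5 encode homeodomain factors of a family that works with EYA and DACH cofactors in muscle, kidney and sensory organs. None of the 4 tested genes of this family passed in edgeR. Six5 measured 12.4 and 16.3 CPM in wild type and 18.4 and 18.1 CPM in knockout (log2 fold change 0.35, SE 0.15). Six4, on chromosome 12, overlapped between groups at 13.5 to 18.5 CPM (log2 fold change 0.21, SE 0.14). Among the cofactors, Eya3 ran from 56.2 to 61.5 CPM with a log2 fold change of -0.09 (SE 0.069) and did not pass. Neither did Eya1, Eya4 and Dach1, with log2 fold changes of -0.14, 0.09 and -0.69 (SE 0.45, 0.25 and 0.32).

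Pax1 and Pax9 mark the sclerotome, the embryonic source of vertebrae and ribs, and Nkx3-2 acts beside them in early cartilage. Pax9 measured 0.221 and 0.198 CPM in wild type and 0.671 and 0.767 CPM in knockout libraries. The groups were well apart, on 7 and 6 counts against 22 and 25, and the gene did not pass (log2 fold change 1.76, SE 0.43, edgeR adjusted p = 0.054). Pax9 entered the test only through its knockout counts. Pax1 had 1 and 2 counts in wild type, 29 in knockout replicate 1 and 4 in knockout replicate 2, and was not tested. Its counts came mostly from a single library, and it passed in edgeR only when knockout replicate 2 was left out (adjusted p = 0.0157). Nkx3-2 had 11 and 3 counts in wild type and 6 and 17 in knockout, and overlapped between groups. Pax7, a marker of muscle stem cells, measured 0.285 and 0.494 CPM in wild type and 0.244 and 0.89 CPM in knockout. The list of skeletal muscle markers, which includes Pax7, summed to 11.0 and 10.9 CPM in wild type, 8.21 CPM in knockout replicate 1 and 29.2 CPM in knockout replicate 2, and 1 of its 8 tested genes rose. Meox2, a homeobox gene of somites and muscle, was likewise highest in knockout replicate 2, at 2.70 CPM against 0.759 to 1.09 CPM in the other libraries (log2 fold change 1.02, SE 0.495, edgeR adjusted p = 0.227, and 0.0312 without knockout replicate 1). The part of muscle cells in these values was not tested. Pax2, Pax3, Pax4 and Pax6 had at most 5 counts in any library.

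T-box factors act as activators or repressors in limb, heart and mesoderm. None of the 5 tested Tbx genes passed, and their median log2 fold change was -0.14. Tbx3, which encodes a transcriptional repressor that acts in limb and mammary development, was the only abundant one. It measured 34.9 and 31.4 CPM in wild type and 31.3 and 41.3 CPM in knockout, and the groups overlapped (log2 fold change 0.13, SE 0.14, edgeR adjusted p = 0.57). Tbx18, a gene of sclerotome and limb mesenchyme, measured 1.77 and 1.22 CPM in wild type and 0.854 and 1.07 CPM in knockout (log2 fold change -0.63, SE 0.33, edgeR adjusted p = 0.253). Tbx2, Tbx15 and Tbx6 overlapped between groups, at 1.61 to 1.93, 1.22 to 2.18 and 0.214 to 0.494 CPM. The limb-type genes Tbx4 and Tbx5 had at most 5 and 8 counts in any library, and Tbx1, Tbx10, Tbx20 and Tbx21 at most 9.

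LIM homeobox genes, En1, Barx2 and the Nkx6 genes are known from limb, brain, eye or muscle development and were expressed at low levels. Lhx6 measured 3.04 and 3.56 CPM in wild type and 2.17 and 0.982 CPM in knockout, with the knockout below and widely spread (log2 fold change -1.06, SE 0.37, edgeR adjusted p = 0.121, and 0.0118 without knockout replicate 1). Lmx1a measured 0.696 and 0.79 CPM in wild type and 0.305 and 0.43 CPM in knockout (log2 fold change -1.01, SE 0.40, edgeR adjusted p = 0.157). En1 had 7 counts in each wild type library and 12 and 23 in the knockout libraries (log2 fold change 1.23, SE 0.53, edgeR adjusted p = 0.181). Barx2 overlapped between groups at 4.49 to 9.33 CPM. Nkx6-1 reached 4.30 CPM in knockout replicate 1 and 1.23 CPM in knockout replicate 2, against 2.56 and 1.45 CPM in wild type. Otx1 overlapped between groups at 0.19 to 0.527 CPM, and Pitx3 had 2 and 6 counts in wild type and 3 and 13 in knockout and was not tested.

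The large CUX, SATB and ZFHX proteins carry several DNA-binding domains and are used in many cell types. None of the 6 tested members passed. Cux1 measured 76.0 and 69.2 CPM in wild type and 63.2 and 61.2 CPM in knockout, with the knockout below (log2 fold change -0.22, SE 0.078, edgeR adjusted p = 0.121). Per length the Cux1 groups overlapped, at 15.0 and 13.1 against 13.7 and 13.3 FPKM. The deposited mean length of Cux1 transcripts was 5019 and 5108 bases in wild type and 4652 and 4637 bases in knockout, and so fell by 8.28%. Lengths differ between libraries only where the authors' estimate of the transcript mix differs. Of 3602 tested genes with such differences, 103 (2.86%) had groups apart by at least 5%, and Cux1 was the only one among 14 members. Zfhx3 measured 27.1 and 22.9 CPM in wild type and 22.1 and 19.1 CPM in knockout (log2 fold change -0.28, SE 0.12, edgeR adjusted p = 0.193). Zfhx4 stayed between 29.2 and 32.0 CPM in all libraries (log2 fold change 0.07, SE 0.081).

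Ratios between related factors within a library do not depend on its depth, and are given as a description. Tgif1 exceeded Tgif2 by 19.9-fold and 21.6-fold in FPKM in the wild type libraries and by 11.1-fold and 10.7-fold in the knockout libraries. Meis2 stood at 0.668 and 0.687 times the FPKM of Meis1 in wild type. In knockout Meis2 stood at 1.04 and 1.03 times Meis1, so these paralogues were about equal there. Irx3 over Irx5 was 14.5 and 10.8 in wild type and 7.81 and 5.85 in knockout. Prrx1 over Alx1 was 2.93 and 2.86 in wild type and 1.44 and 1.26 in knockout. Pbx3 over Pbx2 was 1.40 and 1.31 in wild type and 0.978 and 1.13 in knockout. Dlx2 over Dlx1 overlapped between the groups, at 7.04 and 4.86 against 8.09 and 6.42.

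**Figure D4:**
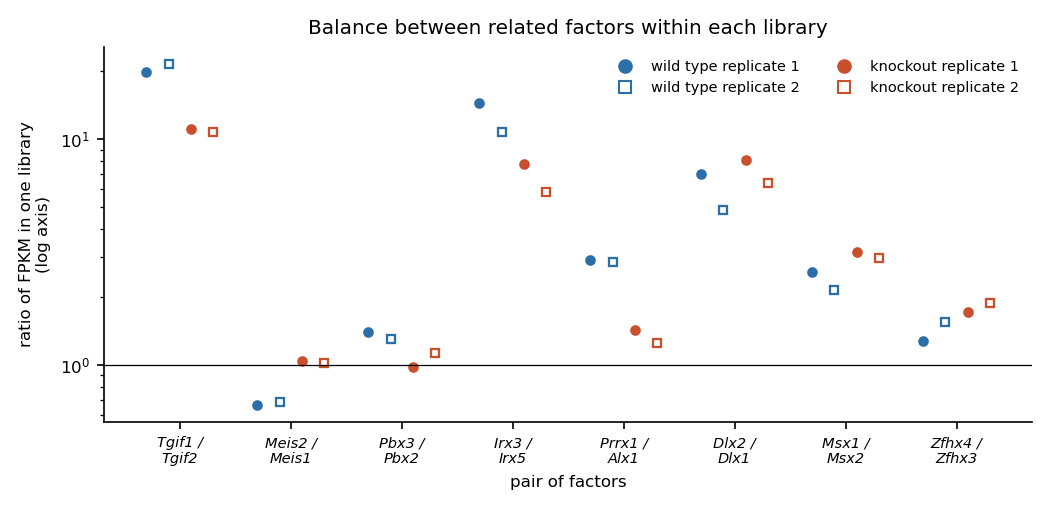
Ratio of FPKM values of related factors within each library (log axis, 1 point per library, line at equal levels). Tgif1 over Tgif2, Irx3 over Irx5 and Prrx1 over Alx1 are lower in both knockout libraries. Meis2 over Meis1 moves from below 1 to about 1.

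Genes around these families were read from 4 further lists. Over all tested genes 9.25% were called, and the median log2 fold change was 0.00443. Of 29 tested homeobox genes outside the family names 1 rose and 3 fell, with a median log2 fold change of -0.12. Pou3f3 fell 1.82-fold from 14.1 and 13.5 to 8.09 and 7.12 CPM (edgeR adjusted p = 0.0141), Zeb2, a repressor of the zinc-finger homeobox type, fell 1.67-fold and Tshz1 1.57-fold, while its paralogue Tshz2 rose 1.45-fold. Pknox1, a relative of MEIS, measured 42.2 and 37.9 CPM in wild type and 33.9 and 32.0 CPM in knockout and did not pass (edgeR adjusted p = 0.0993). Of 23 tested cofactors 2, Pbxip1 and Maged1, rose and 1, the Groucho-type corepressor gene Tle3, fell, with a median of -0.03. Tle3 went from 42.1 and 39.1 to 25.4 and 27.8 CPM, a 1.53-fold fall (edgeR adjusted p = 0.0134). Of 23 tested skeletal and limb patterning regulators 2 rose and 1 fell, with a median of -0.01. Sox6 and Sox5, partners of SOX9 in cartilage, rose 1.69-fold and 1.32-fold, and Runx2, a driver of bone formation and chondrocyte hypertrophy, fell 1.49-fold. Neither of the 2 tested T-box genes outside the Tbx names passed. Among them Mga measured 184 and 235 CPM in wild type and 158 and 161 CPM in knockout (edgeR adjusted p = 0.0892).

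The chondrocyte label was checked on cartilage markers, and the 12 listed of 13 summed to 44541 to 45947 CPM in wild type and 60469 to 63003 CPM in knockout libraries, of which Col2a1, the main cartilage collagen, made up 24370 to 37111 CPM. Among the 12, 4 rose and 2 fell while 6 missed the threshold, and the median log2 fold change was 0.26. Col2a1 rose 1.46-fold and Matn3 3.86-fold, whereas the matrix protein genes Comp and Matn1 fell 3.58-fold and 4.29-fold. Over all tested genes 3.62% rose and 5.63% fell. Markers of other cell types were present at lower levels, and several sums were lower in both knockout libraries. Endothelial markers summed to 125 to 135 CPM in wild type and 85.2 to 98.1 CPM in knockout, with 3 of 10 fallen. Macrophage markers summed to 45.9 to 49.4 and 31.7 to 33 CPM with 1 of 7 fallen, osteoblast markers to 40.4 to 41.9 and 23.4 to 27.6 CPM with 2 of 7 fallen, and erythroid markers to 27.4 to 34.4 and 13.3 to 15.2 CPM with 3 of 7 fallen. Most of the osteoblast sum was Runx2, already named among the patterning regulators, at 32.8 and 31.4 against 19.9 and 23.1 CPM. All 7 tested osteoblast markers lay lower in both knockout libraries. Schwann and neural crest markers were higher, at 34.1 to 40.5 against 47.1 to 59.0 CPM, with 1 of 7 risen. Smooth muscle and pericyte markers summed to 1392 to 1511 against 1514 to 1649 CPM with 2 of 8 risen. Most of that sum was Cspg4, which overlapped between groups at 1322 to 1453 CPM, while Acta2 rose 3.04-fold from 48.8 and 61.2 to 168 and 166 CPM and Tagln 1.79-fold. Neuron markers summed to 10.9 to 11.1 against 7.05 to 7.58 CPM with 1 of 5 fallen. Most of the wild type sum was that gene, Tubb3, at 7.31 and 7.83 against 3.45 and 3.68 CPM. Of the 5 tested neuron markers 2 lay lower in both knockout libraries, 1, Elavl4, lay higher, and 2 overlapped. Tendon, adipocyte and neutrophil sums overlapped between groups. Epithelial and mesothelial markers summed to 12.3 to 12.4 against 9.22 to 10.6 CPM with 1 of 7 fallen, and lymphocyte markers to at most 2.57 CPM. The part of these cells in the changes of the homeobox, Pax and T-box factors was not tested.

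The authors' deposited table of control against knockout by DESeq2 lists 93 members. By the authors' deposited table, 5 members had an adjusted p under 0.05 and were higher in the knockout, and 4 were lower, where 8.52% of all its genes had such a value. They comprise the 8 genes called by edgeR and Dlx2, for which the authors' deposited table gives a log2 fold change of 0.81 and an adjusted p of 0.0416. For Irx3 and Meis2 the authors' deposited table gives log2 fold changes of -1.33 and 0.99. It was made from the same libraries and is not independent of the values above.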

How the data were processed

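RNA-seq values of 4 libraries were used, 2 per group, and sample titles gave the group and the replicate number. Triplicates are mentioned in the series text, whereas each group analysed here has 2. Bowtie2 2.2.5 and the mm9 build are named, per the submitters' processing notes. Which tool estimated the counts, with which annotation and strand setting, was not given in the sources used here. Antisense reads can therefore not be told apart. Each library's deposited table lists, by its header, gene, transcript length, expected count and FPKM. The authors' deposited DESeq2 table holds group means (signal, as normalized counts), log2 fold changes, and raw and adjusted p-values. Genes absent from a library's list were set to 0.

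Expected counts were rounded, then fitted in R 4.3.3 by edgeR 4.0.16 (TMM scaling, filterByExpr, quasi-likelihood F test, no block) on all genes, with Benjamini-Hochberg adjustment over 13773 tested genes. Standard errors were obtained by dividing log2 fold changes by the root of F. The step was tested on simulated data. Alternatives used DESeq2 1.42.0, limma 3.58.1 on log2(FPKM + 0.1) or log2(FPKM + 1), upper-quartile scaling, other filters, 26 transcript-named entries summed with their genes (none belongs to a member), a replicate block and each library left out. Members, lists and tests were chosen with earlier results of these data known. Named members were those called, those averaging at least 10 CPM, the 2 with the smallest p and the 1 with the highest FPKM in each family, and up to 4 called genes per further list. Other genes named, and the pairs set in ratio, were chosen after their values were seen. A few members entered all fits and counts but are not reported here by name.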

Additional observations from a re-analysis of the deposited data

How the results depend on the processing

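All 8 calls held with upper-quartile scaling, with DESeq2, with limma on FPKM values above a filter and with transcript-named entries summed. With limma on all FPKM values 0 genes passed, 0 members rose and 0 fell, where 4055 genes had an unadjusted p under 0.05 and the lowest adjusted p of the 8 was 0.072. Kdm6b and Kdm6a then had log2 fold changes of -1.31 and -0.82 and did not pass either. Without a filter on low counts the number of all tested genes called in edgeR was 720, and 2 members rose and 3 fell, where more genes were tested. The calls of Irx1, Pbx2 and Tgif2 were lost in that fit. Leaving out 1 library gave 0 to 1275 called genes, 0 to 4 rising and 0 to 5 falling members. Without wild type replicate 1, 3442 genes still had an unadjusted edgeR p under 0.05, and without wild type replicate 2 there were 2587. Log2 fold changes then ran from -1.43 to -1.27 for Kdm6b and from -0.93 to -0.80 for Kdm6a. A single library in a group was assumed to vary like the other group. Among the members picked by the naming rule above, the sign of 5 uncalled ones changed on leaving out 1 library. Members outside that rule were not counted. Log2 fold changes of the 5 ran from -0.048 to 0.78 for Barx2, -0.28 to 1.80 for Nkx3-2 and -0.65 to 1.19 for Pax7. They ran from -0.072 to 0.32 for Tbx3 and from -0.85 to 0.61 for Otx1. Leaving out knockout replicate 2 turned the first 4 of them, leaving out wild type replicate 1 also turned Barx2, and leaving out wild type replicate 2 turned Otx1. Under a stricter filter Irx1 was not tested and the other 7 calls held.

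The titles give both groups the replicate numbers 1 and 2, but nothing says that they pair the samples, and replicate differences correlated at 0.107 over genes. With a replicate block the number of all tested genes called was 2316, and 8 members rose and 5 fell, with Dlx2, Msx1, Pax9 and Lhx6 among the added ones. Members under about 1 CPM rest on few counts, and 46 members could not be tested at this depth.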
